A study of Mus musculus with 4 samples.

Results

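The cytosolic ribosomal protein genes were described in CD11b+Ly6g+ myeloid-derived suppressor cells (MDSCs) from mouse lung. Members were the protein-coding genes whose symbol begins with Rpl or Rps and a number, together with Rplp0, Rplp1, Rplp2 and Rpsa, and without the S6 kinase genes that share the Rps6k prefix. Of 54532 genes, 94 met this rule. They comprised 77 canonical subunit genes, of which 46 encode the large and 31 the small subunit, 9 paralogs and other genes with such names, and 8 protein-coding copies with a "-ps" symbol. The rule itself uses no expression value. The minimum of 10 counts in at least 1 library was met by 89 members and by 16369 genes in all.

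Each of the 4 groups gave a single mRNA library, for which the sorted lung cells of 10 to 12 C57BL/6 mice aged 6 to 8 weeks were pooled. All mice, the untreated controls included, carried the pre-metastatic niche (PMN) model. They received intraperitoneal MCM (culture medium that B16F10 melanoma cells had conditioned) at 300 µL per mouse for 10 days, and 100000 B16F10 cells were injected into the tail vein on day 7. The Ctrl library came from PMN model mice that were given no peptide, and healthy mice are not part of the comparison. TP5 mice were given free thymopentin, an immunomodulatory pentapeptide. FR17 mice were given the peptide that carries TP5 on a self-assembling backbone through a linker cut by MMP2, and sFD17 mice were given the scrambled control, which still assembles but lacks the activity of TP5. All 3 peptides were injected subcutaneously at 40 μM/kg each day from day 3, and lungs were collected on day 10. The sequencing asked whether TP5 or the assembled peptide accounts for the response of the MDSCs.

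Total counts lay between 15543071 (sFD17) and 19638228 (FR17). Normalisation was by TMM (trimmed mean of M values), and levels are given as CPM, the counts scaled to a common library total, after it. The markers used in the sort were present in every library, with Itgam (CD11b) at 381 CPM in Ctrl, 370.4 under TP5, 433 under sFD17 and 302 under FR17, and Ly6g at 73.1, 97.8, 111 and 90.7 CPM. Itgam was thus lowest in FR17, and Ly6g was 1.52-fold above Ctrl in sFD17. Because each group is a single library, no difference has a replicate check and none was tested. The intervals given are 95% exact binomial intervals that cover counting error only, and a gene was called higher or lower at 1.5-fold.

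The ribosome is built from ribosomal RNA and a fixed set of proteins, nearly all of which are needed as a single copy in each particle. Their genes are therefore expressed together in most cells. In mammals their mRNAs carry a 5′ terminal oligopyrimidine (TOP) tract, a C at the cap followed by an unbroken run of pyrimidines. Through this tract mTORC1 and the LARP1 protein adjust translation and stability of the whole group. Processed pseudogenes of these genes are abundant in mammalian genomes, so short reads can match more than 1 locus.

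The annotated starts of several members are shown because they carry this tract, and because Rps27 and its copy Rps27rt recur in the results. Each line gives the 15 bases before and the 15 bases from the RefSeq transcription start on GRCm38.p6, on the gene's strand, with the pyrimidine run that opens the transcript in capitals.
Rps6, chr4:86857353-86857382, minus strand: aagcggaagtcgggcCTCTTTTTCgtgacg
Rpl35, chr2:39005117-39005146, minus strand: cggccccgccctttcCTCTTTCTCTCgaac
Rps18, chr17:33955651-33955680, minus strand: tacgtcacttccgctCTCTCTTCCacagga
Rplp2, chr7:141447636-141447665, plus strand: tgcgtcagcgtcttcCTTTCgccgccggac
Rps27, chr3:90213634-90213663, minus strand: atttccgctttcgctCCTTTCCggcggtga
Rps27rt, chr9:114982725-114982754, minus strand: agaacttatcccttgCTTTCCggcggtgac
A C followed by at least 4 pyrimidines at the annotated start, read on the gene's own strand only, was found in 14 of the 66 members with a promoter entry (21.2%). Among canonical members it was found in 13 of 57 (22.8%), and among all 27025 promoters in 3.01%. A run of at least 7 pyrimidines within 20 bases of the start was present in 57.6% of members against 27.5% of all promoters. The match is a description of the annotated position. After a shift of 1 base, 39 of the first 49 bases of Rps27 and Rps27rt were equal, although the bases before the start belong to different chromosomes.

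Nearly the whole set of member genes differed in level between libraries in the same way, with sFD17 low and FR17 high. Member genes took 2.39% of all counts in Ctrl (2.38 to 2.39), 2.82% in TP5 (2.81 to 2.83), 1.62% in sFD17 (1.61 to 1.62) and 3.48% in FR17 (3.47 to 3.49). On the normalised scale, which sets these libraries on the level of their typical gene, the summed level was 1.14 times Ctrl under TP5, 0.786 times under sFD17 and 1.23 times under FR17. In bulk libraries such as these, fewer cells of a type that is rich in ribosomal protein mRNA and less such mRNA per cell cannot be told apart.

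**Figure D1:**
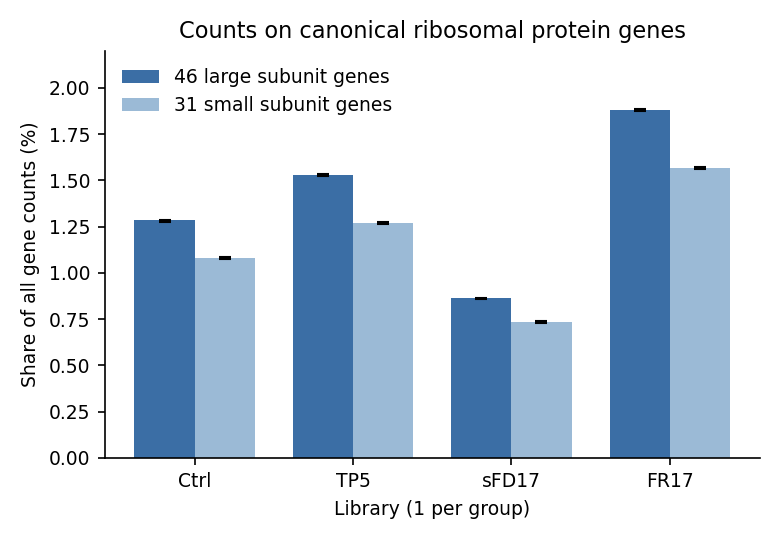
Share of all gene counts (%, axis from 0) taken by the 46 canonical large subunit genes and the 31 canonical small subunit genes in each of the 4 libraries, with 95% exact binomial intervals that cover counting error only. Both subunits were lowest in sFD17 (0.861% and 0.734%) and highest in FR17 (1.88% and 1.57%).

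Both subunits followed the same course. Large subunit genes held 1.28% of counts in Ctrl, 1.53% under TP5, 0.861% under sFD17 and 1.88% under FR17, as the plot of shares by subunit shows. Small subunit genes held 1.08%, 1.27%, 0.734% and 1.57% in the same order. The ratio of small to large subunit counts stayed between 0.831 in TP5 and 0.852 in sFD17. Thus the total differed between libraries far more than the balance of the subunits.

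Gene by gene, the shift was small for most members and mostly in the same direction. Against Ctrl the median log2 fold change of the 89 members was 0.19 in TP5, beside 0.00 for all genes tested, and 82 members lay above 0. In sFD17 the median was -0.36 beside -0.03 for all genes, and 83 members lay below 0. In FR17 it was 0.31 beside 0.02, and 82 members lay above 0. The counting interval excluded 0 on the same side for most of the 77 canonical genes. It lay above 0 for 68 of them in TP5 and for 73 in FR17, and below 0 for 74 in sFD17. Among 3258 abundant genes outside the family, those with a mean of at least 50 CPM, it lay above 0 for 29.9% in TP5 and 16.8% in FR17, and below 0 for 23.1% in sFD17.

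Few members passed 1.5-fold against Ctrl. In TP5, 1 member was higher and 2 were lower, where 8.98% and 11.8% of all genes tested were called higher and lower. In sFD17, 2 members were higher and 8 lower, beside 13.4% and 15.6% of all genes. In FR17, 3 were higher and 1 lower, beside 11% and 11.7%. The share of members called exceeded the background in none of these comparisons, while the member medians lay farther from 0 than the median of all genes. Scaling by library size alone moved the median of all genes to -0.23 in sFD17 and 0.26 in FR17, and the member medians to -0.58, with 43 members called lower beside 24.5% of all genes on that scale, and 0.56, with 33 called higher beside 22.1%. The distance of the members from the median gene was then -0.34 in sFD17, 0.30 in FR17 and 0.19 in TP5.

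The 3 peptides were given at the same dose and times, so their libraries were also set side by side as 3 pairs. Between FR17 and sFD17, which differ in the TP5 activity while both assemble, the member median was 0.67 (all genes 0.07). Here 57 members were higher in FR17 by 1.5-fold and 2 were lower, beside 24.7% and 21.3% of all genes, and at 2-fold 5 were higher and 0 lower, beside 11.3% and 10.8%. Between sFD17 and free TP5 the median was -0.58 (all genes -0.04), with 2 members higher and 42 lower in sFD17 beside 15.4% and 16.4%, and at 2-fold 1 was higher and 0 lower, beside 6.74% and 5.64%. Between FR17 and TP5 the median was 0.10 (all genes -0.02), with 4 members higher in FR17 and 1 lower beside 14.4% and 10.1%. The smallest of the 3 medians was thus that between the peptides that hold TP5, although the counting interval of FR17 against TP5 still lay above 0 for 63 of the 77 canonical genes and below 0 for 3, beside 13% and 69.2% of the abundant genes. With library size alone the 3 medians were 1.13, -0.85 and 0.30. The pairs share libraries and are not independent.

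The 74 canonical genes with at least 100 counts in every library were ordered alike. In 65 of them (87.8%) the level was lowest in sFD17, then Ctrl, then TP5, and highest in FR17. This order held in 11% of all genes tested. All 74 were lowest in sFD17, against 36.9% of all genes. Of the 74, 67 were highest in FR17, for which the share of all genes was not computed. With DESeq2 size factors the same order again held in 65, and 73 were lowest in sFD17, the exception being Rps9. Under the main scaling Rps9, Rplp0, Rpl27, Rps13, Rpl15, Rps28 and Rpl7a were highest in TP5, and Rps27a and Rpl21 were lower in TP5 than in Ctrl.

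**Figure D2:**
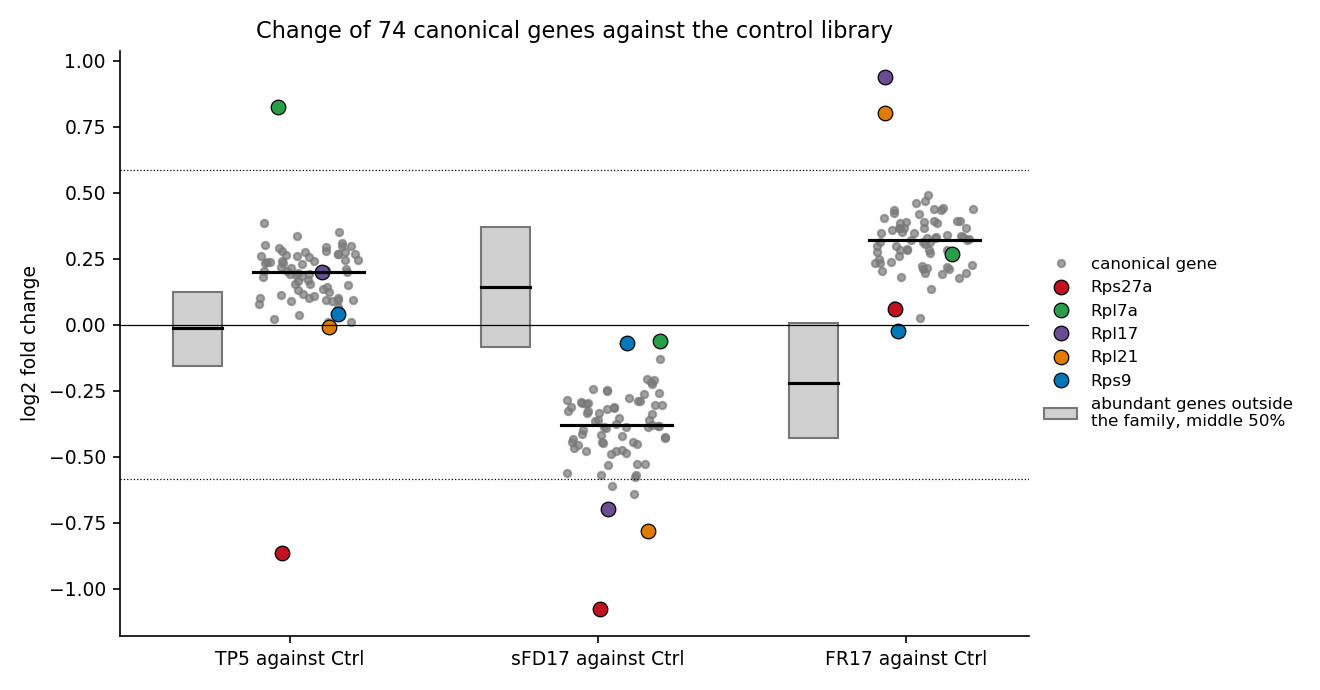
Log2 fold change against the Ctrl library (vertical axis) of the 74 canonical genes with at least 100 counts in every library (points, spread sideways only to separate them), for each peptide library. Black lines are medians, grey boxes the middle 50% of 3258 abundant genes outside the family, and dotted lines 1.5-fold. The medians of the 74 genes were 0.20 under TP5, -0.38 under sFD17 and 0.32 under FR17, and Rps27a, Rpl7a, Rpl17 and Rpl21 lay apart from the rest.

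The 74 genes also lay close together, as the plot of changes by peptide shows. The standard deviation of their log2 fold changes against Ctrl was 0.17 under TP5, 0.15 under sFD17 and 0.14 under FR17. The abundant genes outside the family spread by 0.27, 0.51 and 0.33. Counting alone would give the canonical genes 0.03 to 0.04, so members differed from each other by more than counting error. Across the 74 genes the change followed neither exon length (Spearman's rho 0.06, 0.11 and 0.04 in TP5, sFD17 and FR17) nor, in FR17, mean level (rho -0.08), while rho with mean level was 0.18 in TP5 and 0.35 in sFD17. The genes share the same 4 libraries, so these are descriptions only.

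The proteins of the acidic stalk, which recruits the GTPases of translation to the large subunit, included the member with the highest level per length and a member with little difference in sFD17. Rplp1 (chr9:61913284-61914542) was at 597 CPM in Ctrl, 612 under TP5, 414 under sFD17 and 771 under FR17. It was high in FR17, low in sFD17 and nearly level between Ctrl and TP5 (log2 0.04, interval -0.003 to 0.08). Rplp0, the base of the stalk, was at 814 CPM in Ctrl, 1038 under TP5, 743 under sFD17 and 1027 under FR17. Its difference in sFD17 was the third smallest of the 74 well-counted canonical genes (log2 -0.13). Rplp2 kept the common order of libraries, with 288, 335, 224 and 340 CPM in Ctrl, TP5, sFD17 and FR17.

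Most members of the small subunit with well known roles kept the common order, and Rps27a, which did not, is described below. Rps6, the S6 kinase substrate whose start is printed above, was at 439 CPM in Ctrl, 529 under TP5, 369 under sFD17 and 545 under FR17. Rps3, which lines the mRNA entry channel, was at 617, 710, 505 and 781 CPM. Rpsa, also known as the laminin receptor precursor, had the largest TP5 value of the small subunit, with 561 CPM in Ctrl and 733 in TP5 (log2 0.39, interval 0.35 to 0.43). In FR17 it reached 787 CPM (log2 0.49), the third largest rise among canonical members, and in sFD17 it was at 485 CPM. Rps19, mutated in Diamond-Blackfan anaemia, was 1.29-fold higher in FR17 and 0.817 times Ctrl in sFD17. Rps14, linked to the 5q- syndrome, gave 1.24 and 0.861 times Ctrl. Rps6, Rps3, Rpsa, Rps19 and Rps14 all stayed within 1.5-fold of Ctrl, and each was lowest in sFD17.

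Large subunit members behaved alike. Rpl5 and Rpl11, which carry the 5S rRNA and bind Mdm2 when they are not in a ribosome, were at 379 and 332 CPM in Ctrl. In sFD17 they were at 282 and 256 CPM and in FR17 at 477 and 390 CPM. Rpl4, which lines the tunnel through which the nascent chain leaves, was at 556 CPM in Ctrl, 702 under TP5, 453 under sFD17 and 729 under FR17. Rpl3, near the site of peptide bond formation, gave 398, 490.0, 316 and 521 CPM. These genes again stood in the order sFD17, Ctrl, TP5 and FR17. Rpl13a, a subunit that also joins a complex silencing inflammatory mRNAs in interferon-treated myeloid cells, was counted only 161 times in Ctrl, 162 under TP5, 78 under sFD17 and 276 under FR17. Its change in sFD17 (log2 -0.68) had a wide interval of -1.10 to -0.29.

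The level per exon length, in TPM, which scales counts by length and by library, differed widely between members, whose protein products are needed in nearly equal number. Among the 75 canonical genes with at least 100 counts in a library, the Ctrl level ran from 12.1 TPM for Rpl13a to 3217 TPM for Rplp1, with a median of 398 TPM. Rps3a1 followed with 1477 TPM, Rps15 with 1415, Rplp0 with 1319 and Rps9 with 1258. At the low end stood Rpl21 with 52.2 TPM, Rps15a with 85.7, Rpl22 with 127 and Rpl36a with 130. The order was stable, since 9 of the 10 highest genes were the same in all 4 libraries. The exon length used is that of all annotated exons of a gene together, which lowers the value of genes with long rare exons, and reads that match a pseudogene may not be counted for the parent gene.

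**Figure D3:**
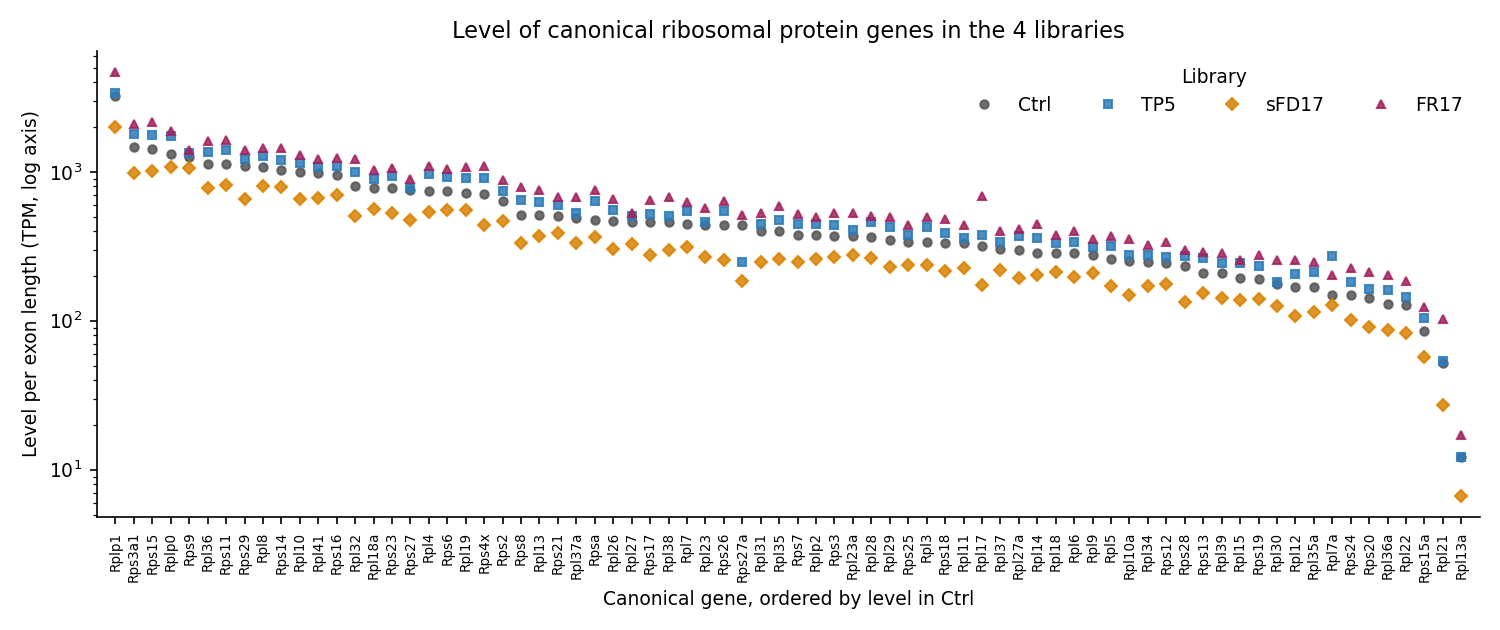
Level per exon length (TPM, log axis) of canonical ribosomal protein genes (100 counts or more in some library, Rpl13a included), ordered by their level in Ctrl, with 1 point per library. The points of sFD17 lie lowest for each gene and those of FR17 highest for most, while the order of genes from Rplp1 (3217 TPM in Ctrl) to Rpl13a (12.1 TPM) is much the same in all libraries.

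Against this common course a few members stood apart. Rps27a (chr11:29545846-29548109, minus strand) encodes ubiquitin fused to a small subunit protein and had the largest fall of all canonical genes in both TP5 and sFD17. It was at 321 CPM in Ctrl, 176 under TP5, 152 under sFD17 and 334 under FR17. The Ctrl and FR17 libraries were thus alike for this gene (log2 0.06, interval 0.01 to 0.11), while TP5 (log2 -0.86) and sFD17 (log2 -1.08) were low. It was the only canonical gene called lower in TP5, whereas the median of the set was higher. Of its counts with relatives of shared sequence, 97.7% in Ctrl lay on Rps27a itself, and the summed values were still -0.78 in TP5 and -1.003 in sFD17.

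Rpl7a (chr2:26910764-26913318, plus strand), a large subunit protein, was the only member called higher in TP5. Its level was 99.0 CPM in Ctrl, 176 under TP5, 94.9 under sFD17 and 119 under FR17. TP5 was 1.77-fold above Ctrl, and the log2 value in sFD17 was -0.06 (interval -0.17 to 0.05). Summed with its 29 relatives the TP5 value was 0.50 on the log2 scale and no longer called, and that in sFD17 was -0.11 (interval -0.20 to -0.03).

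Among canonical genes Rpl17 and Rpl21, both of the large subunit, had the largest rise in FR17 and, after Rps27a, the largest fall in sFD17. Rpl17, on chromosome 18, was at 91.6 CPM in Ctrl, 105 under TP5, 56.4 under sFD17 and 175 under FR17. Rpl21 (chr5:146832890-146837032, plus strand) was at 66.0 CPM in Ctrl, 65.7 under TP5, 38.3 under sFD17 and 115 under FR17. FR17 exceeded sFD17 3.10-fold for Rpl17 and 3.00-fold for Rpl21, more than for any other canonical gene. In both families most reads were counted elsewhere. The gene itself held 21.4% of the Ctrl counts of Rpl17 with its 15 relatives and 34.2% of those of Rpl21 with its 14.

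**Figure D4:**
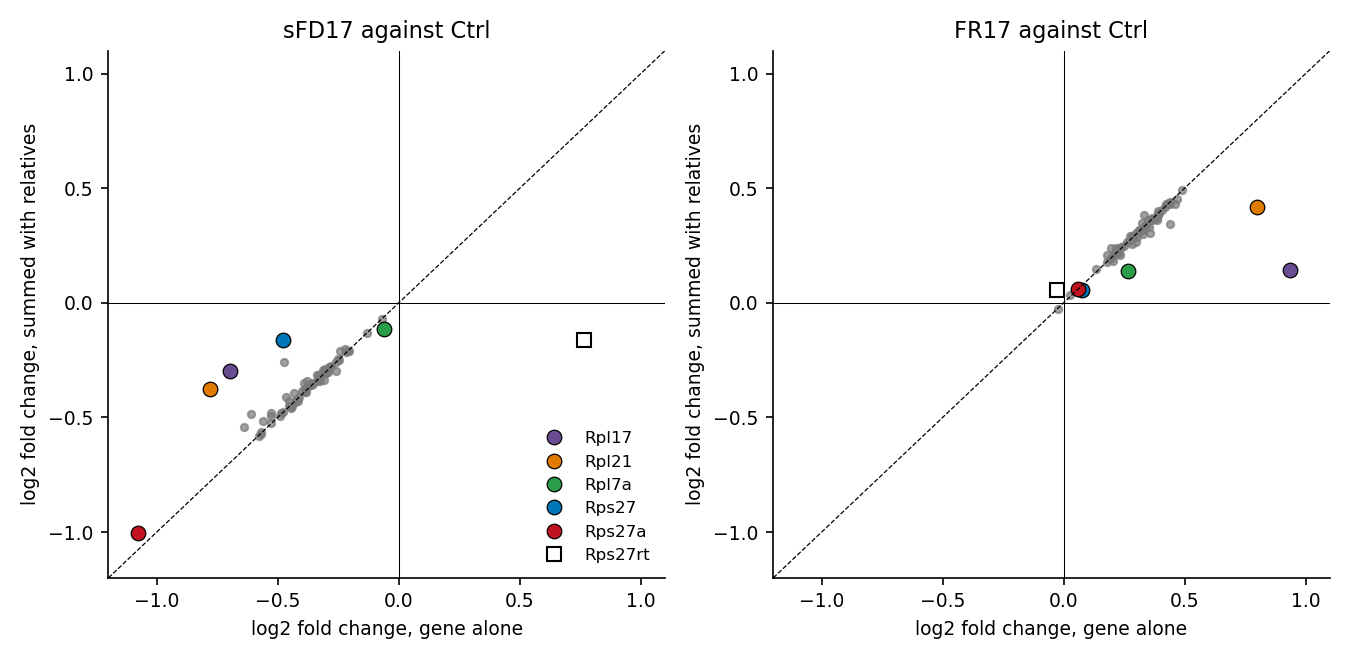
Log2 fold change against Ctrl of each gene alone (horizontal axis) and of its counts summed with those of genes that share sequence with it (vertical axis), for sFD17 and FR17. Points are the 74 canonical genes and the square is Rps27rt, and the dashed line marks equal values. Most points lie on or near the line, while Rpl17, Rpl21 and Rps27rt lie off it, Rpl17 at 0.94 alone and 0.15 summed in FR17. Rps27 and Rpl27a also lie off it in sFD17, Rps27 at -0.48 alone and -0.16 summed.

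Sequence shared with other genes was common in the family. A median of 48.4% of the 50-base stretches in a canonical transcript also occurred in a transcript of another gene, and up to 98.7% for Rps27. In 34 canonical genes the share was 50% or more and in 6 it was 10% or less. When the counts of each member were summed with those of genes sharing at least 10% of its stretches, an alternative added after the data were seen, the medians of the 74 genes hardly moved. They were 0.20 under TP5, -0.35 under sFD17 and 0.31 under FR17. The spread among genes became smaller, from 0.17 to 0.14 in TP5, from 0.15 to 0.13 in sFD17 and from 0.14 to 0.10 in FR17. The common course was thus as large with the relatives as without them, while part of the differences between members was not.

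The single genes that stood apart differed in this respect, as the plot of single against summed values shows. Rpl17 summed with its relatives was 0.14 under TP5, -0.30 under sFD17 and 0.15 under FR17, so the rise in FR17 was no longer above that of the set. Its relative Rpl17-ps10 had 3920 counts in Ctrl and 3975 in the deeper FR17 library (log2 -0.42), opposite to Rpl17 itself. Rpl21 summed was -0.38 in sFD17 and 0.42 in FR17. Here the relative Gm12411 had 97 counts in Ctrl and 14 in FR17, a small number beside the family total of 3263. Whether reads were moved between these loci by alignment was not tested.

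Rps27 and Rps27rt also had opposite values in sFD17. Rps27rt, the single-exon copy on chromosome 9 whose start is printed above, was at 63.3 CPM in Ctrl, 64.5 under TP5, 108 under sFD17 and 62.2 under FR17. It was high in sFD17 alone, 1.70-fold above Ctrl, where 76 of the 77 canonical genes were low. Rps27 was at 290 CPM in Ctrl, 293 under TP5, 208 under sFD17 and 306 under FR17. Summed, the pair and their relatives gave -0.16 in sFD17, so the direction of Rps27rt turned, and 0.06 in FR17. FR17 against sFD17 was -0.79 for Rps27rt alone and 0.22 for the sum.

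Rps9 (chr7:3703993-3706897, plus strand), the member with the most counts, was the flattest. It was at 1180 CPM in Ctrl, 1215 under TP5, 1123 under sFD17 and 1159 under FR17. Its log2 fold change was 0.04 under TP5, -0.07 under sFD17 and -0.03 (interval -0.05 to 0.001) under FR17, which with library size alone turned to 0.22. Rps9 kept 99.8% of the counts of its family in Ctrl, so summing hardly altered it. Rps26 and Rps28 stood at the other side in sFD17, with log2 values of -0.61 and -0.64, and were called lower. Summed with relatives they were -0.48 and -0.54 and no longer called. Rps26-ps1, a relative of Rps26, had 90 counts in Ctrl and 251 in sFD17 (log2 1.81), opposite to Rps26 itself. For 3 canonical genes some library held fewer than 100 counts. Rpl24 had 27, 38, 22 and 42 counts in Ctrl, TP5, sFD17 and FR17, and Rps10 had 32, 24, 21 and 40. Its copy Rps10-ps2 had 1599, 1937, 1077 and 2728 counts and followed the common course (log2 0.22, -0.21 and 0.33). The third was Rpl13a, with 78 counts in sFD17.

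The paralogs had fewer counts than their canonical partners. Rps27l, a p53-induced relative of Rps27, was at 23.3 CPM in Ctrl, 26.9 under TP5, 15.2 under sFD17 and 34.0 under FR17, the same order as the canonical set. Its fall in sFD17 (log2 -0.62) was called. Rpl22l1 and Rpl7l1, relatives of Rpl22 and Rpl7, had 443 and 528 counts in Ctrl and changes in FR17 of 0.19 and 0.20. The muscle paralog Rpl3l had 68 counts in Ctrl and 62 to 76 in the others, with intervals that spanned 0 in each comparison with Ctrl. The paralog Rpl39l had 11 counts in Ctrl and 5, 2 and 5 in TP5, sFD17 and FR17. It was called lower in all 3 (log2 -0.94, -1.53 and -1.21), and each interval spanned 0, the widest from -5.32 to 0.09. The testis gene Rpl10l had 0 counts in every library, which allows up to 0.131 to 0.227 CPM. Rps19bp1, which binds Rps19 and is no ribosomal protein, was higher in both TP5 (log2 0.52) and FR17 (0.49).

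Of the 8 members with a "-ps" symbol, Rps12-ps3 and Rpl9-ps6 had enough counts to follow. Rps12-ps3 had 771 counts in Ctrl and 483 in sFD17 (log2 -0.32), and Rpl9-ps6 had 495 and 394 (log2 0.03). Rpl27-ps3 accounted for the largest member value in FR17 (log2 1.32) and for a called rise in sFD17 (1.09), on 8 counts in Ctrl, 15 in sFD17 and 31 in FR17. Rpl36-ps4 and Rpl13a-ps1 had 0 counts in every library. Of the members called against Ctrl, Rpl27-ps3 and Rpl39l thus had hardly any reads.

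Ribosomal proteins whose symbols lie outside the rule gave mixed values. Rack1, a scaffold on the small subunit, was at 500 CPM in Ctrl, 601 under TP5, 386 under sFD17 and 627 under FR17, the common order. Fau, a ubiquitin-like protein fused to a small subunit protein, was at 940.2, 917, 878 and 881 CPM. Like Rps9 it differed little from Ctrl in any library (log2 -0.04, -0.10 and -0.10).

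The cytosolic ribosomal protein genes were then set beside other genes of the translation machinery. Of 77 mitochondrial ribosomal protein genes tested, encoded in the nucleus for a separate ribosome, the medians were 0.07 under TP5, -0.36 under sFD17 and 0.28 under FR17. In sFD17, 16 of them were called lower and none higher, and in FR17, 7 were called higher and none lower, where 15.6% of all genes were called lower in sFD17 and 11% higher in FR17. They too were mostly lowest in sFD17, 66 of 77 (85.7%), while the full order of libraries found in most canonical genes held in 32 (41.6%). Ribosome biogenesis factors had medians of 0.17, -0.27 and 0.27 over 77 genes. Of these, 15 were called lower in sFD17, where 15.6% of all genes were, among them Nhp2 (log2 -0.91) and Dkc1 (-0.84), which act on small nucleolar ribonucleoproteins. The 2 largest changes in FR17 were those of Grwd1 (1.13, on 44 counts in Ctrl and 134 in FR17) and Tsr2 (0.90, on 48 and 124), the latter a chaperone of Rps26.

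**Figure D5:**
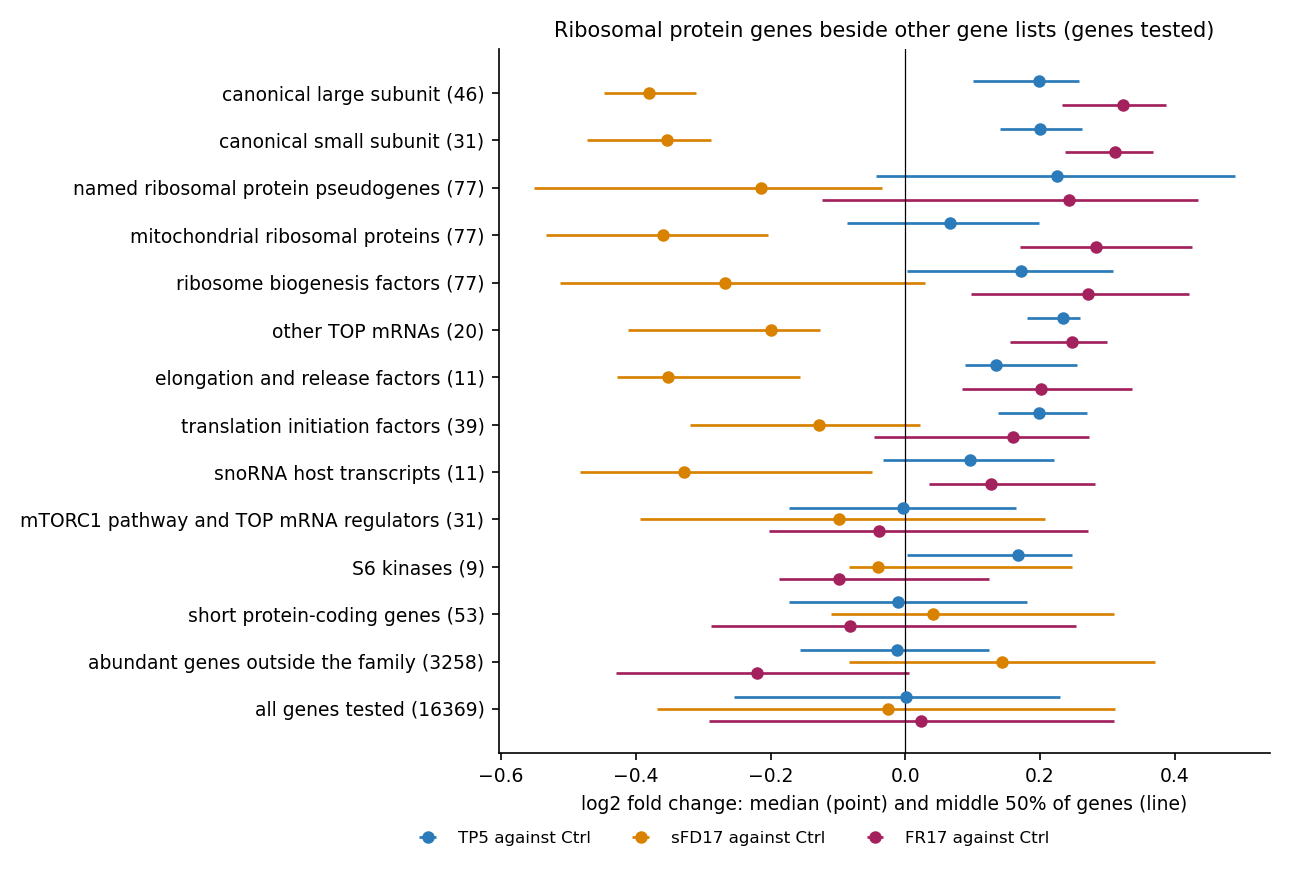
Median log2 fold change against Ctrl (points) and middle 50% of genes (lines) for the canonical subunits, for other lists of the translation machinery and for reference sets, with the number of genes tested in brackets. The canonical subunits had the medians 0.20 in TP5, -0.38 and -0.35 in sFD17 and 0.32 and 0.31 in FR17, while abundant genes outside the family had -0.01, 0.14 and -0.22.

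Other TOP mRNAs, a list of 20 genes that includes elongation and initiation factors, had medians of 0.23, -0.20 and 0.25. Their starts were not read here, and several of these genes also stand in the other lists of the translation machinery. Among the 20 genes Npm1, a nucleolar chaperone of ribosome assembly, was at 125 CPM in Ctrl, 154 under TP5, 77.3 under sFD17 and 164 under FR17. Npm1 was called lower in sFD17. Translation initiation factors (39 genes; 0.20, -0.13 and 0.16), elongation and release factors (11 genes; 0.14, -0.35 and 0.20) and small nucleolar RNA hosts (11 genes; 0.10, -0.33 and 0.13) lay on the same sides of 0. The plot of gene lists shows these medians with the middle 50% of each list. Genes of the mTORC1 pathway and regulators of TOP mRNAs had medians near 0 in TP5 (0.00) and FR17 (-0.04) and of -0.10 in sFD17, over 31 genes. That list includes Mxd1, a MYC antagonist that is also among the neutrophil markers described below. Mxd1 was at 2854 CPM in Ctrl, 2117 under TP5, 4656 under sFD17 and 1395 under FR17, opposite to the ribosomal proteins in every library. Of the 31 genes it alone was called higher in sFD17. There 4 of 31 were called lower beside 15.6% of all genes, among them the mTOR inhibitor Deptor (log2 -0.68). The S6 kinase genes, some of which phosphorylate Rps6, had medians of 0.17, -0.04 and -0.10 over 9 genes.

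The named pseudogenes of ribosomal protein genes, outside the rule because they are not annotated as protein-coding, took a small share of counts. It was 0.0951% in Ctrl, 0.112% under TP5, 0.0706% under sFD17 and 0.125% under FR17. On the normalised scale the summed level was highest in TP5, at 1.14 times Ctrl, beside 0.862 in sFD17 and 1.11 in FR17. Of 290 such loci, 77 were tested. Short protein-coding genes with abundant mRNA, which resemble ribosomal protein genes in length, had medians of -0.01, 0.04 and -0.08 over 53 genes.

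Cell type markers, those of neutrophils with the sort marker Ly6g among them, also differed between the libraries. Summed over 18 neutrophil markers the level was 0.991 times Ctrl under TP5, 1.36 under sFD17 and 0.771 under FR17, with all 18 higher in sFD17 and 5 of them higher in FR17. Macrophage markers gave 0.756, 0.373 and 1.25 over 16 genes, none of them higher than Ctrl in sFD17 and 14 higher in FR17. T cell markers gave 0.966, 0.644 and 1.77 over 12 genes and NK cell markers 0.728, 0.797 and 2.98 over 10, with every gene of both lists higher in FR17. Their levels were low, 82 and 40 CPM in Ctrl for the summed T and NK lists, beside 10313 CPM for macrophages and 56408 CPM for neutrophils. Early granule genes of neutrophil precursors were 1.51, 1.11 and 1.36 times Ctrl, monocyte markers 1.01, 1.16 and 0.890 (although 5 of 10 were higher in sFD17 and 8 of 10 in FR17), dendritic cell markers 1.77, 1.09 and 1.33, B cell markers 1.38, 1.11 and 1.18, and cycling cell markers 1.44, 1.18 and 1.15. No marker of these lists was at 0 in any library. The macrophage, T cell, NK cell and, inverted, the neutrophil lists thus had sFD17 and FR17 on the same sides of Ctrl as the ribosomal proteins. Under TP5 the macrophage, T cell and NK cell lists lay below Ctrl, where the ribosomal proteins lay above. The early granule, monocyte, dendritic cell, B cell and cycling cell lists lay above Ctrl in sFD17, where the ribosomal proteins lay below. The part of any of these cells in the result was not tested.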

How the data were processed

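The mRNA of lung CD11b+Ly6g+ MDSCs, sorted by flow cytometry from PMN model mice, was measured in 4 libraries, 1 each for Ctrl, TP5, sFD17 and FR17. TRIzol was used for extraction and a directional NEBNext kit for the libraries. The values the authors deposited are raw counts of reads for each gene, not normalised, with coordinates and exon length. The submitters' processing notes name HISAT2 2.0.5, StringTie 1.3.3b, featureCounts 1.5.0-p3, edgeR 3.18.1 and GRCm38. The strand setting and the handling of reads that match several loci are not given in the sources used here, so genes of shared sequence and overlapping genes are uncertain. Groups were taken from the labels, and 0 sample columns were left unmapped.

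Log2 fold changes came from edgeR 4.0.16 (R 4.3.3) log2 CPM (TMM factors, prior count 2) of the genes that reached 10 counts in 1 library or more. TPM used the deposited exon length. Tables were handled with pandas 2.3.3, numpy 2.4.6 and scipy 1.17.1 and plotted with matplotlib 3.10.9. With 1 library per group no test was run, and a gene was called at 1.5-fold. Intervals are 95% exact binomial intervals of the pair of counts or of the share. They cover counting error only, since PCR copies are not independent molecules. The procedure was tested on simulated counts with known fold changes. The 100 symbols on more than 1 row were read from the row with the most counts, and no member was among them. GENCODE M21 transcripts were used for shared sequence and the RefSeq promoter table for starts, which held 66 of the 94 members.

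Members and gene lists were chosen with earlier results of these data known. Genes were named by level per length (5 highest and 5 lowest), by change (3 highest and 3 lowest of each comparison with Ctrl and of FR17 against sFD17, with at least 100 counts in either library), by role, as paralogs with partners, and in other lists by the 2 largest changes in sFD17 and in FR17. Of the last group only some are reported, and some genes the rule selects are not reported here. Rps13, Rpl15, Rps26, Rps28, Rpl24, Rps10, Rpl27-ps3, Rps12-ps3, Rpl9-ps6 and relatives of members were named after their values were seen, as were the starts of Rpl35 and Rps18. The 8 "-ps" members, first counted with the canonical genes, were set apart. Alternatives were library size alone, DESeq2 1.42.0 size factors, TMM without the members, a prior count of 0.5, no filter, at least 10 counts in every library, a 2-fold call, canonical genes only and totals without the 10 most abundant genes. Added after the data were seen were sums with relatives and the limit of 100 counts in every library.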

Additional observations from a re-analysis of the deposited data

How the results depend on the processing

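The medians of the members kept their direction in all 6 comparisons under every alternative run. With library size alone they were -0.58 (sFD17 against Ctrl), 0.56 (FR17 against Ctrl), 1.13 (FR17 against sFD17), 0.30 (FR17 against TP5) and -0.85 (sFD17 against TP5). On that scale 43 members were called lower in sFD17 and 33 higher in FR17, beside 24.5% and 22.1% of all genes. For the 1 member called higher in sFD17 no share of all genes was computed. This scaling also moved the median of all genes, by construction. Without a filter on low counts the medians were 0.38 (FR17 against Ctrl), 0.77 (FR17 against sFD17) and 0.17 (FR17 against TP5). At 2-fold against Ctrl, 0 members were called higher and 0 lower in TP5, beside 3.2% and 4.99% of all genes. For sFD17, 1 was higher and 2 were lower, beside 5.32% and 6.47%. For FR17, 1 was higher and 1 lower, beside 3.92% and 3.58%. Members higher by 2-fold in FR17 than in sFD17 numbered 5 (11.3% of all genes), and 0 were lower by 2-fold in sFD17 than in TP5 (5.64%). With at least 10 counts in every library, which removes members of few counts, 1 was lower in TP5, 1 higher in sFD17 and 0 lower in FR17. The share of all genes called under this filter was not computed. The member share was 2.56%, 3.02%, 1.73% and 3.73% in Ctrl, TP5, sFD17 and FR17 when the 10 most abundant genes were left out of the total, and 2.36%, 2.79%, 1.60% and 3.45% for canonical genes only. DESeq2 size factors, TMM factors without the members and a prior count of 0.5 left the medians and counts of calls within the limits used. Summing with relatives turned Rps27rt from higher to -0.16 in sFD17 against Ctrl and from lower to 0.22 in FR17 against sFD17. It lowered the number of the 74 canonical genes called from 1 to 0 in TP5 (higher, Rpl7a), from 5 to 1 in sFD17 (lower) and from 2 to 0 in FR17 (higher). Genes outside the family were not summed in this way, so no share of all genes stands beside the summed calls. With 1 library per group no replicate could be left out and no paired analysis was possible because the groups hold 1 sample each. Low counts limit Rpl24, Rps10, Rpl39l and most "-ps" members, where a few reads decide the fold. Of the Ctrl counts of Rps10 with its relatives, 1.8% lay on Rps10 itself.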
